A study of Saccharomyces cerevisiae with 18 samples.

Results

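The transcript changes that follow addition of cysteine were compared between *snf5Δ* cells and wild type (wt) cells of Saccharomyces cerevisiae. The value followed for each gene was a difference of differences, the log2 change from YPD to YPD with cysteine (YPD+Cys) in *snf5Δ* minus the same change in wt. It was formed from 12 of the 18 libraries of the study, 3 in each of wt YPD, wt YPD+Cys, *snf5Δ* YPD and *snf5Δ* YPD+Cys, and across all 5757 of the 7127 listed genes that passed a filter on low counts, whatever their function. All cells were BY4741 haploids of mating type a, which carry *his3Δ1*, *leu2Δ0*, *met17Δ0* and *ura3Δ0*, and the mutant came from the yeast deletion collection with *SNF5* replaced by KanMX4. YPD is a rich medium of yeast extract, peptone and glucose at 30°C, and the treated cells spent their last 30 min before harvest with cysteine added at 3 mM. RNA was depleted of ribosomal RNA and sequenced. The remaining 6 libraries, from *snf2Δ* cells in both media, entered the same model and are used below only to set a second Swi-Snf mutant beside *snf5Δ*.

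Swi-Snf is a chromatin remodeling complex that moves or evicts nucleosomes, with Snf2 as its ATPase and Snf5 as a core subunit. In yeast the genes of sulfur metabolism, the MET regulon, are switched on by the activator Met4, which has no DNA-binding activity of its own and is brought to promoters by Cbf1 or by Met31 and Met32. When cysteine is plentiful, the ubiquitin ligase SCF-Met30 keeps Met4 inactive. The *met17Δ0* allele removes the enzyme that joins sulfide to O-acetylhomoserine, so every strain here needs an organic source of sulfur, which YPD contains. Addition of cysteine asks how far the transcripts of each strain respond to more of that sulfur. The difference between strains asks which of those responses differ between cells with and without *SNF5*, and it includes any difference between the strains in YPD.

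The labels were checked first. *SNF5* had 0 to 1 counts in the 6 *snf5Δ* libraries and 114 to 289 in the wt and *snf2Δ* libraries. No library of the 18 held a count of *MET17*, *LEU2* or *URA3*, and *HIS3*, of which *his3Δ1* leaves a part, had 44 to 167. Of the 7 a-specific genes tested, 6 were lower in *snf5Δ* than in wt in each medium, and their summed level was 1570 to 2030 CPM (counts scaled to a common library size) in wt YPD, 1660 to 1900 CPM in wt YPD+Cys, 476 to 557 CPM in *snf5Δ* YPD and 469 to 512 CPM in *snf5Δ* YPD+Cys. The α-factor genes had 0 to 2 counts in any of the 12 libraries. The 2 other α-specific genes, *STE3* and *SAG1*, were tested. Their summed level was 19.6 to 20.8 CPM in wt YPD, 18.2 to 25.3 CPM in wt YPD+Cys, 23 to 26.2 CPM in *snf5Δ* YPD and 23.5 to 25 CPM in *snf5Δ* YPD+Cys. Of these 2 genes, 0 were called different between the strains in YPD, and 1 was higher in *snf5Δ* in YPD+Cys. The 12 libraries held 1329986 to 4294986 counts in genes. The shallowest, replicate 3 of *snf5Δ* in YPD, had 71.4% of its reads at several places in the genome, against 3.19% to 28.6% in the other 11, and the counts of the difference and of the cysteine effect in *snf5Δ* are also given without it.

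Without pairing of replicate numbers, the genes whose response to cysteine differed between *snf5Δ* and wt were mostly genes of sulfur metabolism (16 of 19 are in the 4 sulfur lists below). For each of these 19 the response of *snf5Δ* lay below that of wt. With the pairing described below, 65 more genes were called in both directions, 57 of them outside those lists. With edgeR's quasi-likelihood test and Benjamini-Hochberg adjustment over all 5757 genes, 19 genes (0.33% of those tested) responded lower in *snf5Δ* at an adjusted p under 0.05 and 0 (0%) responded higher. At an unadjusted p under 0.05 there were 97 lower and 56 higher. That is fewer in all than this threshold would give among 5757 genes with no difference. DESeq2 called 28 lower and 1 higher. All 19 were lower with cysteine in *snf5Δ*, where 48 genes in all fell (0.834%) and 4 rose (0.0695%), or 40 and 1 without *snf5Δ* YPD replicate 3. In wt, 13 genes fell (0.226%) and 12 rose (0.208%), and of the 19 only *MMP1* was among them. With the replicate block described below, *MUP1*, *MET6* and *MHT1* also fell in wt and *SUL1* rose there. Over the 19 genes the median effect of cysteine was -2.61 on the log2 scale in *snf5Δ* and -0.08 in wt. All 19 were higher in *snf5Δ* than in wt in YPD, a comparison in which 12% of all genes were higher and 15% lower. In YPD+Cys, where 9.73% of all genes were higher in *snf5Δ* and 11.3% lower, 6 of the 19 were lower than in wt and 0 were higher. The 3 *snf5Δ* YPD libraries lay above all 9 others for each of the 19 genes and for 1.84% of all genes. The 19 were called on a difference that includes these libraries, so this describes them and is no separate support. In bulk RNA, fewer cells with a transcript and less of it per cell cannot be told apart.

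**Figure D1:**
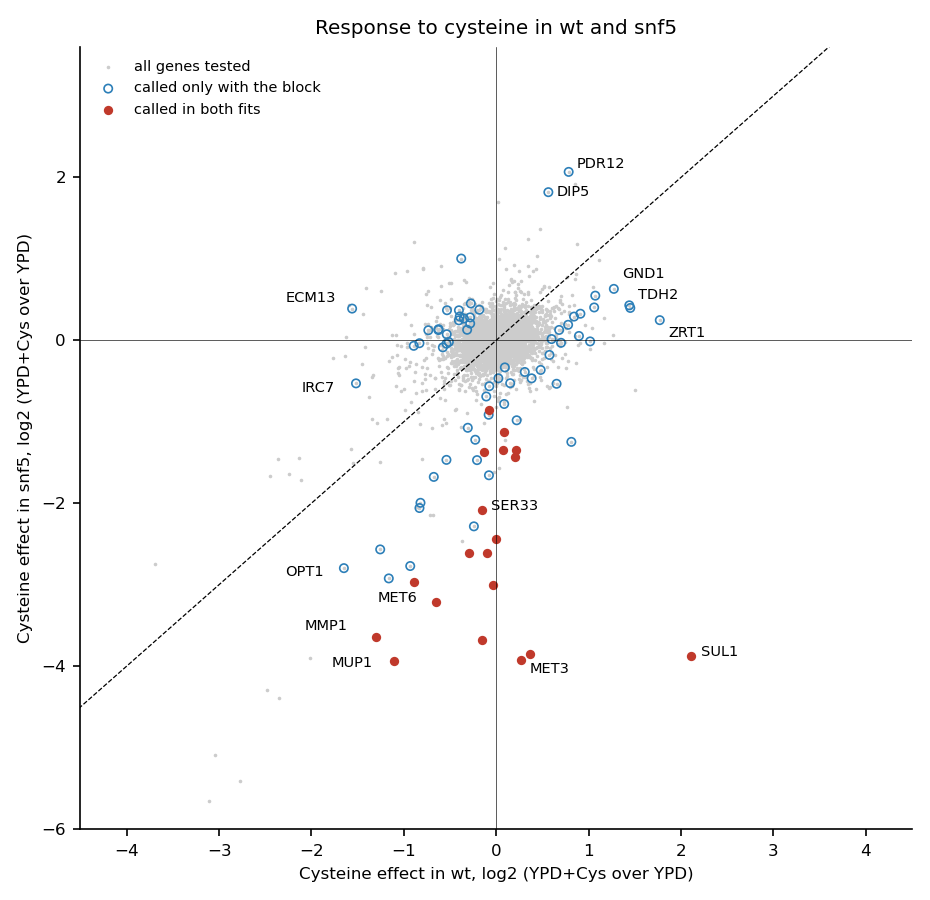
Effect of cysteine on each of the 5757 genes in wt (horizontal axis) and *snf5Δ* (vertical axis), both as fitted log2 changes from YPD to YPD+Cys. Points on the dashed diagonal respond alike. The 19 genes called in both fits (filled) lie below it, most of them near 0 in wt and between -3.93 and -0.86 in *snf5Δ*, and the 65 genes called only when replicate numbers are paired (open circles) lie on both sides.

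Libraries of the same replicate number were paired within a strain, because their deviations from the group means moved together (processing section). With the replicate number within strain as a block, 60 genes responded lower in *snf5Δ* (1.04% of those tested) and 24 higher (0.417%). These 84 include all 19 named above, so 65 genes were called with the block only, 41 lower and 24 higher. Of these 65, 8 are in the 4 sulfur lists and 57 are outside them. The count of 84 fell to 50 without *snf5Δ* replicate 1 of either medium and was 121 without *snf5Δ* replicate 2 of YPD+Cys and 57 without *snf5Δ* YPD replicate 3, and all 19 were called in each of the 12 fits with the block that left out 1 library. Without the block, 13 to 18 genes were called when 1 library was left out. There, 13 of the 19 were called in all 12 such fits, and *MET6*, *MHT1*, *MET1*, *IES5*, *MET22* and *HOM6* were not. Without the shallow *snf5Δ* YPD replicate 3, 14 of the 19 were called and *MHT1*, *MET1*, *MET6*, *IES5* and *HOM6* had adjusted p-values of 0.0555 to 0.123.

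The sulfate assimilation pathway takes sulfate into the cell and reduces it to sulfide. Of its 10 genes, all tested, 9 were called without the block and 10 with it, all lower in *snf5Δ*, and their median difference was -2.74 against 0.00 for all genes. The same 10 genes had a median cysteine effect of -2.81 in *snf5Δ* and 0.08 in wt. This list, like the others, was drawn up with earlier results of these data known, and its counts are a description.

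The sulfate permeases at the plasma membrane had the lowest differences. *SUL1* had 54.2, 84.8 and 126 CPM in the 3 *snf5Δ* YPD libraries and 4.78, 7.36 and 5.21 CPM in *snf5Δ* YPD+Cys. In wt it had 2.61, 2.85 and 3.33 CPM in YPD and 13.6, 21.1 and 3.5 CPM in YPD+Cys. It thus fell in *snf5Δ* (log2 effect -3.87, adjusted p = 4.65e-05), whereas in wt replicates 1 and 2 were higher with cysteine and replicate 3 was not (log2 effect 2.10, adjusted p = 0.235, and 0.00234 with the block). The difference of the responses was -5.98 ± 0.72 (SE, adjusted p = 0.000257). *SUL2* had 314, 262 and 408 CPM in *snf5Δ* YPD and 24.5, 24.8 and 18.7 CPM in *snf5Δ* YPD+Cys. In wt *SUL2* had 18.9, 23.1 and 14.1 CPM in YPD and 20.7, 35.2 and 16.9 CPM in YPD+Cys, so that the *snf5Δ* libraries with cysteine lay inside the wt range. Its difference was -4.21 ± 0.41 (SE, adjusted p = 3.96e-05).

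Activation of sulfate starts with ATP sulfurylase, encoded by *MET3*, and goes on with adenylylsulfate kinase, encoded by *MET14*. *MET3* had 189, 249 and 359 CPM in *snf5Δ* YPD and 14.1, 18.4 and 19.2 CPM in *snf5Δ* YPD+Cys. In wt it had 24.1, 20.5 and 19.6 CPM in YPD and 26.7, 25.8 and 24.7 CPM in YPD+Cys. The *snf5Δ* libraries were therefore above every wt library without cysteine (log2 3.62 higher). With cysteine they lay below the wt libraries, but the strains did not differ there by the test (log2 -0.575, adjusted p = 0.121). *MET3* gave the smallest adjusted p of the comparison (difference -4.20 ± 0.35, SE, adjusted p = 9.38e-06). *MET14* had 86.8, 135 and 181 CPM in *snf5Δ* YPD and 9.27, 11.7 and 9.87 CPM in *snf5Δ* YPD+Cys. In wt *MET14* stayed between 18.6 and 24.8 CPM in all 6 libraries. With cysteine it was lower in *snf5Δ* than in wt (log2 -0.97, adjusted p = 0.0165), and its difference was -3.52 ± 0.36 (SE, adjusted p = 3.96e-05).

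The later steps reduce the activated sulfate. Phosphoadenylylsulfate reductase, encoded by *MET16*, had 38.8 to 62.6 CPM in *snf5Δ* YPD, 5.21 to 10.2 CPM in *snf5Δ* YPD+Cys and 6.19 to 10.3 CPM over the 6 wt libraries, with a difference of -2.51 ± 0.37 (SE, adjusted p = 0.00173). *MET5* encodes one of the subunits of sulfite reductase and had 462, 609 and 633 CPM in *snf5Δ* YPD, 70.5, 82.0 and 59.2 CPM in *snf5Δ* YPD+Cys, and 86.3 to 115 CPM over the 6 wt libraries. The difference for *MET5* was -2.97 ± 0.30 (SE, adjusted p = 3.96e-05). *MET10*, which encodes the other subunit, had 303 to 432 CPM in *snf5Δ* YPD, 61.6 to 79.0 CPM in *snf5Δ* YPD+Cys and 58.4 to 89.5 CPM in wt, with a difference of -2.43 ± 0.31 (SE, adjusted p = 0.000561). *MET16*, *MET5* and *MET10* thus met the wt range, or fell under it, once cysteine was added. None of them was called different from wt in YPD+Cys (adjusted p = 0.982, 0.130 and 0.945).

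Sulfite reductase uses siroheme, which is made by Met1 and Met8. *MET1* differed by -1.42 ± 0.27 (SE, adjusted p = 0.0241) and lost its call in 8 of 12 fits without 1 library, with adjusted p-values up to 0.0878. *MET8* had 23.2 to 39.0 CPM in *snf5Δ* YPD and 4.55 to 6.52 CPM in wt YPD, and was called only with the block (difference -2.06, adjusted p = 9.48e-05 with the block, 0.153 without). *MET22*, whose phosphatase removes the phosphoadenosine phosphate left over from the pathway, had 83.8 to 126 CPM in *snf5Δ* YPD and 42.5 to 53.0 CPM in the 9 other libraries of wt and *snf5Δ*. Its difference was -1.21 ± 0.21 (SE, adjusted p = 0.0117, and 0.0531 without *snf5Δ* YPD+Cys replicate 1).

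**Figure D2:**
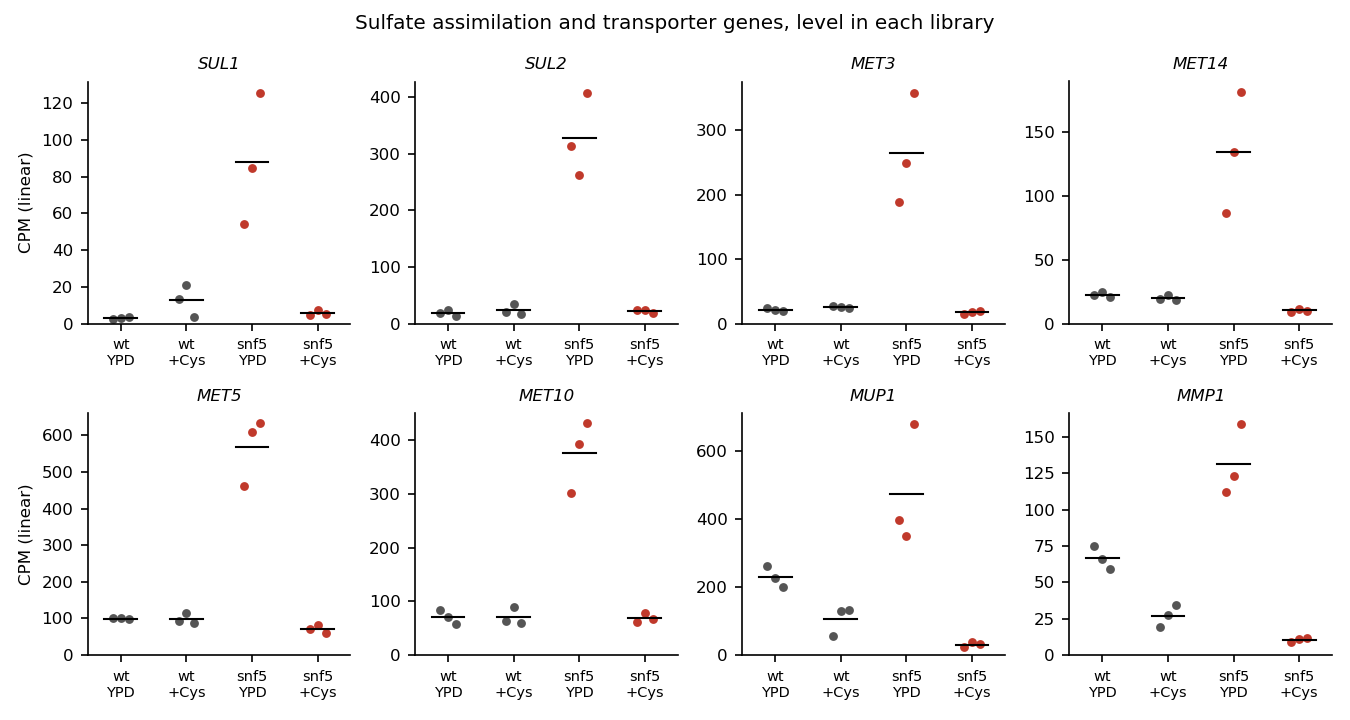
Level in CPM (scaled counts, linear axes from 0) of 8 sulfur genes in each of the 3 libraries of wt and *snf5Δ* in YPD and in YPD+Cys (points), with the group mean (line). In all 8 panels the 3 *snf5Δ* YPD libraries are the highest, and the *snf5Δ* YPD+Cys libraries fall to or below the wt libraries.

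Known core motifs of the Met4 partners were sought in the 250 bases before and 50 bases after each annotated gene start, on both strands, in the R64 (sacCer3) reference genome. The Cbf1 core CACGTG was present in 6 of the 19 windows (31.6%), against 163 of 5537 over all genes tested (2.94%). The Met31/Met32 core CTGTGG was present in 5 of the 19 (26.3%), against 384 of 5537 (6.94%), and 10 of the 19 windows held neither. Among the 60 genes called lower with the block the shares were 21.7% and 26.7%, and among the 23 genes called higher with a window they were 4.35% and 17.4%. The cores do not overlap each other in the sites printed here, and a match in letters is a description. *MMP1* and *MHT1* are divergent neighbours with 342 bases between them, so the same pair of CTGTGG matches counts for both. Both cores were found for *MET10* and *IES5*, and the 30 bases around the match nearest to the start are shown on the strand of the gene with the core in capitals (CCACAG is CTGTGG read on the other strand), to show how the motifs are spaced. The *MET10* sites are at chrVI:213069-213098 and chrVI:213088-213117 (plus strand), the matches starting 231 and 212 bases before the gene start. The *IES5* sites are at chrV:342683-342712 and chrV:342800-342829 (plus strand), the matches starting 160 and 43 bases before it.
MET10, Cbf1 core: agcttatagaagCACGTGaccacaattcac
MET10, Met31/Met32 core: ccacaattcaccCCACAGgtgtggcttttt
IES5, Cbf1 core: actagtaatgtgCACGTGatgtggcgtgat
IES5, Met31/Met32 core: tgagttgaatggCTGTGGgaaaccaatact

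Homocysteine and methionine synthesis lies downstream of sulfide. Of its 11 genes tested, 4 were called lower in *snf5Δ* without the block and 6 with it, and the median difference was -0.78. Without *snf5Δ* YPD replicate 3, *MET6*, *MHT1* and *HOM6* of the 4 were not called in the fit without the block. *MET6*, the methionine synthase, had 1462, 1817 and 1980 CPM in *snf5Δ* YPD and 159, 210 and 197 CPM in *snf5Δ* YPD+Cys. In wt it had 348, 405 and 500 CPM in YPD and 117, 211 and 470 CPM in YPD+Cys, so the wt replicates differed in how far *MET6* fell. Its difference was -2.56 ± 0.49 (SE, adjusted p = 0.0241) and lost its call in 7 of 12 fits without 1 library, with adjusted p-values up to 0.102. *STR3*, the cystathionine β-lyase that leads from cysteine back to homocysteine, differed by -2.31 ± 0.38 (SE, adjusted p = 0.00729), with 32.1 to 54.9 CPM in *snf5Δ* YPD and 5.21 to 12.2 CPM in the other 9 libraries. *MHT1*, a methyltransferase that makes methionine from S-methylmethionine, had 16.5 to 23.0 CPM in *snf5Δ* YPD, 1.92 to 3.07 CPM in *snf5Δ* YPD+Cys and 4.84 to 14.2 CPM in wt (difference -2.07 ± 0.38, SE, adjusted p = 0.0180, lost in 6 of 12 fits without 1 library). *HOM6*, the homoserine dehydrogenase, had the smallest difference called, -0.78 ± 0.16 (SE, adjusted p = 0.0435), and lost its call in 8 of those 12 fits. *MET2*, which makes O-acetylhomoserine, and *MET13*, a methylenetetrahydrofolate reductase, were called with the block only (-1.78, adjusted p = 0.0315, and -1.18, adjusted p = 0.000195, with the block). *MET13* differed in shape from the rest, with 23.8 to 52.4 CPM in wt YPD and 36.8 to 72.6 CPM in wt YPD+Cys, higher with cysteine in wt and lower in *snf5Δ* in the block fit.

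The list of S-adenosylmethionine synthesis, transsulfuration and glutathione had 8 genes, of which 0 were called without the block and 4 with it, all lower, with a median difference of -0.88. Unlike the sulfate genes, the 4 fell with cysteine in both strains in the block fit, in which 2.03% of all genes fell in *snf5Δ* and 3.13% in wt. *CYS3*, the cystathionine γ-lyase that yields cysteine, had 377, 448 and 487 CPM in *snf5Δ* YPD and 98.7, 126 and 89.4 CPM in *snf5Δ* YPD+Cys. In wt *CYS3* had 330, 228 and 333 CPM in YPD and 133, 133 and 235 CPM in YPD+Cys, a smaller fall (difference -1.20, adjusted p = 0.00131 with the block, 0.244 without). *CYS4*, the cystathionine β-synthase, had 480 to 654 CPM in wt YPD, 305 to 451 CPM in wt YPD+Cys, 367 to 442 CPM in *snf5Δ* YPD and 111 to 145 CPM in *snf5Δ* YPD+Cys (difference -0.99, adjusted p = 2.82e-05 with the block, 0.162 without). *SAM1*, an S-adenosylmethionine synthetase with a close copy in *SAM2*, and *GSH1*, the first enzyme of glutathione synthesis, differed by -1.54 and -0.75 (adjusted p = 0.0121 and 0.00209 with the block). *CYS4*, *SAM1* and *GSH1* were lower in *snf5Δ* than in wt with cysteine (log2 -1.46, -3.23 and -1.30, adjusted p = 1.66e-05, 0.000194 and 1.74e-05). In YPD, *SAM1* and *GSH1* were already lower in *snf5Δ* than in wt (log2 -1.47 and -0.53, adjusted p = 0.0229 and 0.0168). *CYS4* and *CYS3* were not called there (log2 -0.46 and 0.56, adjusted p = 0.0558 and 0.0773).

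Of the 6 transporters of organic sulfur compounds, 5 fell in *snf5Δ* and 3 in wt, where 0.834% and 0.226% of all genes fell. In the difference, 3 were called lower without the block and 4 with it, the median difference was -1.37, and the median cysteine effect was -2.07 in *snf5Δ* and -1.20 in wt. *MUP1*, the high-affinity methionine permease, had 396, 348 and 678 CPM in *snf5Δ* YPD and 22.5, 37.8 and 31.8 CPM in *snf5Δ* YPD+Cys. In wt it had 261, 226 and 200 CPM in YPD and 57.0, 130 and 132 CPM in YPD+Cys. With cysteine *MUP1* was lower in *snf5Δ* than in wt (log2 -1.78, adjusted p = 0.0015). Its difference was -2.83 ± 0.47 (SE, adjusted p = 0.00757). *MMP1*, the S-methylmethionine permease, had 112, 124 and 159 CPM in *snf5Δ* YPD and 8.99, 10.8 and 11.5 CPM in *snf5Δ* YPD+Cys. In wt *MMP1* had 75.2, 66.0 and 59.2 CPM in YPD and 19.4, 27.6 and 34.2 CPM in YPD+Cys (log2 effect -1.31, adjusted p = 0.00657), and its difference was -2.33 ± 0.32 (SE, adjusted p = 0.000903). *YCT1*, a cysteine transporter, did not fall in wt (17.9 to 21.4 CPM in YPD, 20.2 to 25.5 CPM in YPD+Cys) and had 45.3 to 54.3 CPM in *snf5Δ* YPD and 15.4 to 21.7 CPM in *snf5Δ* YPD+Cys (difference -1.55 ± 0.22, SE, adjusted p = 0.00165). *OPT1*, which carries glutathione, was called with the block only (-1.09, adjusted p = 0.0185) and fell in both strains, from 272 to 311 CPM to 71.7 to 110 CPM in wt and from 86.7 to 117 CPM to 11 to 19.2 CPM in *snf5Δ*. *MUP3* and *SAM3*, a low-affinity methionine permease and an S-adenosylmethionine permease, were called in neither fit.

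Over these 4 lists, 16 of the 35 members tested were called without the block (45.7%) and 24 with it (68.6%). The 11 called in neither fit had differences of -1.19 to 0.40, and 7 of them were below 0. Genes outside the 4 lists made up 3 of the 19, and 57 of the 65 called only with the block. In a further list of sulfur scavenging and sulfur lyases, 1 of 10 genes (*YHR112C*) was called lower, *IRC7* was called higher with the block, and the median difference was -0.38. *SER33*, a 3-phosphoglycerate dehydrogenase of serine synthesis, had 175, 207 and 244 CPM in *snf5Δ* YPD and 44.4, 52.8 and 49.6 CPM in *snf5Δ* YPD+Cys, against 68.4 to 96.9 CPM over the 6 wt libraries (difference -1.93 ± 0.21, SE, adjusted p = 0.000107). *YHR112C*, which resembles cystathionine γ-synthases, had 88.4 to 93.2 CPM in *snf5Δ* YPD and 32.3 to 35.0 CPM in *snf5Δ* YPD+Cys, against 19.2 to 32.6 CPM in wt (difference -1.64 ± 0.21, SE, adjusted p = 0.000631). *IES5*, named here after its values were seen, encodes a subunit of another chromatin remodeler, the *INO80* complex. It is transcribed away from *MET6* with 687 bases between them, and had 36.8 to 55.6 CPM in *snf5Δ* YPD and 14.8 to 23.1 CPM in the other 9 libraries (difference -1.24 ± 0.25, SE, adjusted p = 0.0435, lost in 10 of 12 fits without 1 library).

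**Figure D3:**
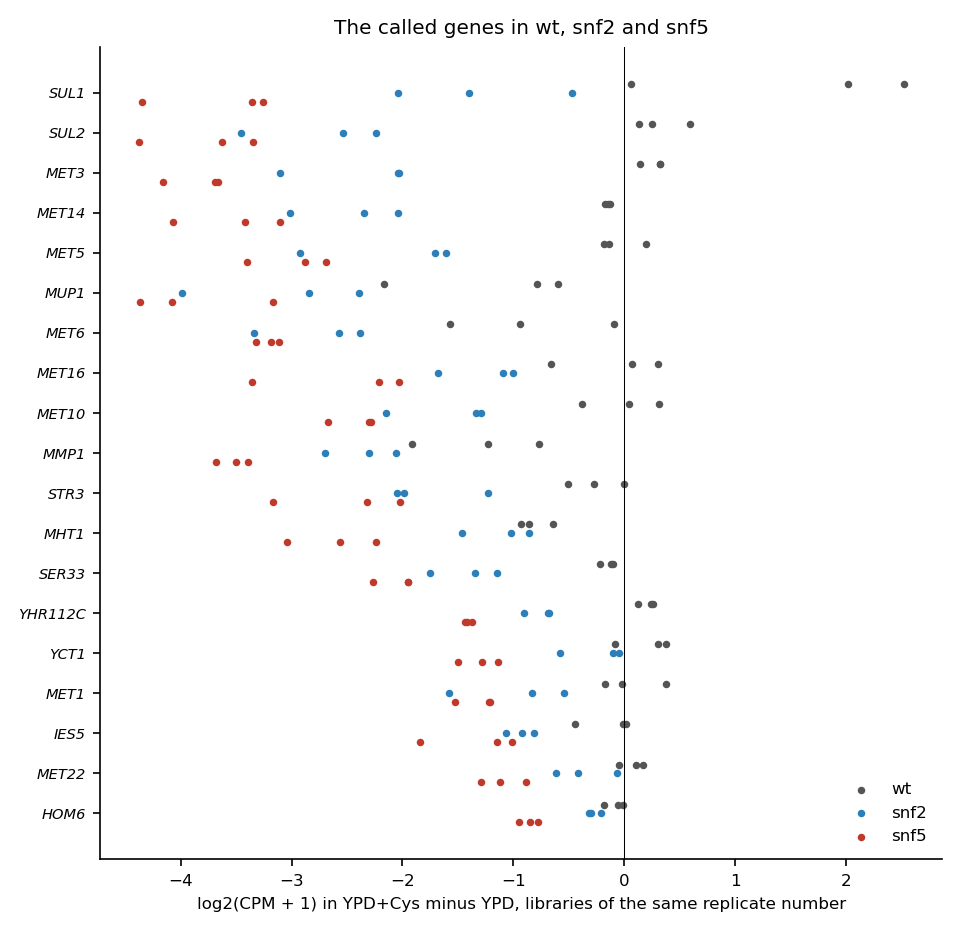
Change from YPD to YPD+Cys of the 19 genes called, as the difference of log2(CPM + 1) between libraries of the same replicate number, in wt (grey), *snf2Δ* (blue) and *snf5Δ* (red), 3 pairs per strain. For all 19 genes the 3 *snf5Δ* pairs lie below the 3 wt pairs, an order that the call largely fixes, and for 12 of them, and 5.32% of all genes, they also lie below the 3 *snf2Δ* pairs.

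The 3 pair differences of *snf5Δ* lay below the 3 of wt for all 19 genes, and over all genes they lay below for 7.17% and above for 8.04%. The call of the 19 used the same libraries and largely fixes this order, so nothing is read from it. Few calls of the difference were made in the Met4 complex itself. Of the 10 members of the list of Met4, its partners and SCF-Met30, 0 were called without the block and 1 with it, and the median difference was -0.02. Without the block, 3 of the 10 fell with cysteine in *snf5Δ* (0.834% of all genes) and 0 in wt (0.226%). In YPD 4 of the 10 were higher in *snf5Δ* than in wt (12% of all genes). The gene called was *MET30*, the F-box protein of the ligase, with 70.1 to 88.8 CPM in *snf5Δ* YPD, 43.0 to 48.3 CPM in *snf5Δ* YPD+Cys and 29.3 to 40.6 CPM in wt (-0.86, adjusted p = 0.00266 with the block, 0.291 without). *MET32*, chosen here after its values were seen, had 13.5, 14.1 and 14.7 CPM in *snf5Δ* YPD and 1.10 to 4.09 CPM in the other 9 libraries, but passed neither test (difference -2.09, adjusted p = 0.157, and 0.0632 with the block). *MET28*, also chosen after its values were seen, had a difference of -1.59 and passed neither test (adjusted p = 0.398, and 0.113 with the block). *MET4* had a difference of 0.03.

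With the block, further genes of neighbouring metabolism were called. In the pentose phosphate list of 11 genes, 3 were lower, against 1.04% of all genes with the block. *ZWF1*, the glucose-6-phosphate dehydrogenase that yields NADPH, had 223 to 243 CPM in *snf5Δ* YPD, 106 to 133 CPM in *snf5Δ* YPD+Cys and 124 to 168 CPM in wt (-0.82, adjusted p = 0.000256 with the block, 0.203 without). *GND1*, the 6-phosphogluconate dehydrogenase of the same branch, reached its difference by another path, from 301 to 435 CPM to 703 to 1047 CPM in wt and from 315 to 320 CPM to 466 to 534 CPM in *snf5Δ*, a rise in both strains that was smaller in *snf5Δ* (-0.64, adjusted p = 0.00515 with the block). *SOL3*, a 6-phosphogluconolactonase, had 51.2 to 64.8 CPM in wt YPD, 88.6 to 116 CPM in wt YPD+Cys and 43.6 to 69.9 CPM in *snf5Δ* (-0.54, adjusted p = 0.0219 with the block). *MXR1*, a methionine sulfoxide reductase, was the 1 of 21 thiol redox genes called and fell in both strains by the block's test (-1.29, adjusted p = 0.0122 with the block). *ADE3*, of one-carbon metabolism, had 409 to 445 CPM in *snf5Δ* YPD and 282 to 367 CPM in *snf5Δ* YPD+Cys (-0.48, adjusted p = 0.0384 with the block).

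The 65 genes called only with the block fell into different shapes. In the block fit 1.56% of all genes rose with cysteine in *snf5Δ* and 3.09% rose in wt. Of the 41 lower ones, 15 fell in *snf5Δ* and were not called in wt, 8 fell in both strains, 9 rose in wt and were not called in *snf5Δ*, 6 rose in both, 2 rose in wt and fell in *snf5Δ*, and 1 was called in neither. Of the 24 higher ones, 17 fell in wt and were not called in *snf5Δ*, 4 rose in *snf5Δ* and were not called in wt, 2 rose in both and 1 was called in neither. Passing the test in 1 strain only does not by itself show a difference, which for these genes rests on the adjusted p of the difference with the block. Of the 25 genes called in wt without the block, 13 differed between the strains with the block. Over all genes the block called 1.04% lower and 0.417% higher. In 11 of the 13 the difference was opposite in sign to the wt effect. The wt libraries on which the 25 were chosen also enter the difference, so nothing is read from this count.

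Several of these genes rose with cysteine in wt and rose less, or were not called, in *snf5Δ*. *TDH2*, a glyceraldehyde-3-phosphate dehydrogenase of glycolysis with close copies in *TDH1* and *TDH3*, had 1234, 858 and 1206 CPM in wt YPD and 3244, 2313 and 3391 CPM in wt YPD+Cys. In *snf5Δ* it had 3391, 3346 and 3194 CPM in YPD and 4151, 4553 and 4665 CPM in YPD+Cys (difference -1.01, adjusted p = 3.82e-05 with the block, 0.0891 without). *GLN1*, the glutamine synthetase, had 406 to 502 CPM in wt YPD, 823 to 1045 CPM in wt YPD+Cys, 963 to 1117 CPM in *snf5Δ* YPD and 1204 to 1497 CPM in *snf5Δ* YPD+Cys (-0.66, adjusted p = 0.0117 with the block). For *TDH2* and *GLN1*, then, wt with cysteine overlapped the level that *snf5Δ* had without it. *ZRT1*, the high-affinity zinc transporter, went the other way, with 39.7, 49.0 and 74.3 CPM in wt YPD and 121, 132 and 301 CPM in wt YPD+Cys, against 16.5 to 27.5 CPM in all 6 *snf5Δ* libraries (-1.47, adjusted p = 9.48e-05 with the block, 0.501 without). *FTR1*, the iron permease, had 184 to 268 CPM in wt YPD and 311 to 477 CPM in wt YPD+Cys and stayed at 235 to 332 CPM in *snf5Δ* (-0.81, adjusted p = 0.0315 with the block). It was 1 of 2 genes called in the iron uptake list, the other being *FIT3*. In that list 16 of the 18 genes had differences below 0, against 2840 of 5757 over all genes, with a median of -0.42. The median was -0.169 without wt YPD replicate 3, -0.225 without wt YPD+Cys replicate 1 and -0.254 without *snf5Δ* YPD replicate 1.

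Other genes fell in wt and did not change by the test in *snf5Δ*. *VTC3*, a subunit of the vacuolar polyphosphate synthase, had 144, 109 and 117 CPM in wt YPD and 69.5, 73.3 and 56.5 CPM in wt YPD+Cys, and 63.9 to 79.8 CPM in the 6 *snf5Δ* libraries (difference 0.82, adjusted p = 0.000787 with the block, 0.102 without). *VTC4*, of the same enzyme, differed by 0.48 (adjusted p = 0.0117 with the block). In the phosphate list both were called and the median was 0.58. Of its 14 tested genes 2 had differences below 0, against 2840 of 5757 over all genes. *IRC7*, a cysteine desulfhydrase-like β-lyase, had 103 to 136 CPM in wt YPD and 33.3 to 46.1 CPM in wt YPD+Cys, and in *snf5Δ* 16 to 24.3 CPM in YPD and 11.2 to 17.8 CPM in YPD+Cys (0.96, adjusted p = 0.0194 with the block). *LYS20*, a homocitrate synthase of lysine synthesis, had 114 to 194 CPM in wt YPD, 76.3 to 103 CPM in wt YPD+Cys and 61.8 to 82.4 CPM in *snf5Δ* (0.78, adjusted p = 0.000752 with the block). *VTC3*, *IRC7* and *LYS20* were lower in *snf5Δ* than in wt in YPD (log2 -0.74, -2.56 and -1.13, adjusted p = 0.000715, 9.19e-08 and 0.000154). *VTC4* was not called there (log2 -0.31, adjusted p = 0.0724). In that comparison 15% of all genes were lower, and its libraries also enter the difference.

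**Figure D4:**
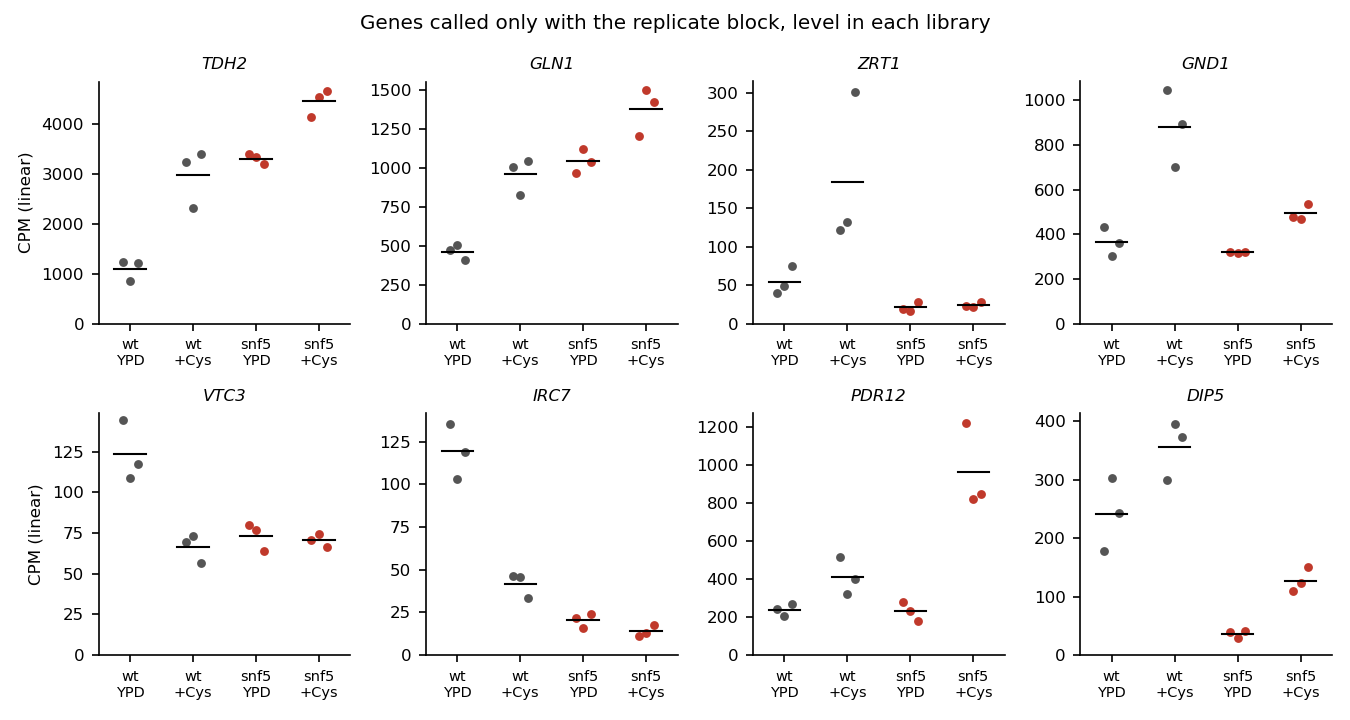
Level in CPM (linear axes from 0) of 8 genes that were called only with the replicate block, in each of the 3 libraries of wt and *snf5Δ* in YPD and YPD+Cys (points), with the group mean (line). *TDH2*, *GLN1*, *ZRT1* and *GND1* rise in wt with little or less change in *snf5Δ*, *VTC3* and *IRC7* fall in wt, and *PDR12* and *DIP5* rise further in *snf5Δ*.

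By the block's test *PDR12* and *DIP5* rose with cysteine in both strains, and further in *snf5Δ*. *PDR12*, an ABC transporter that exports weak organic acids, had 282, 231 and 177 CPM in *snf5Δ* YPD and 1224, 823 and 851 CPM in *snf5Δ* YPD+Cys. In wt it had 244, 206 and 268 CPM in YPD and 515, 320 and 400 CPM in YPD+Cys (difference 1.3, adjusted p = 0.00102 with the block, 1.00 without). *DIP5*, the permease for glutamate and aspartate, had 39.6, 28.3 and 41.5 CPM in *snf5Δ* YPD and 109, 123 and 150 CPM in *snf5Δ* YPD+Cys, against 177 to 303 CPM and 300 to 396 CPM in wt (1.22, adjusted p = 0.00128 with the block, 1.00 without). *PDR12* and *DIP5* are 2 of the 4 genes called higher with cysteine in *snf5Δ* without the block. *TPO3*, a polyamine exporter, and *ARG1*, the argininosuccinate synthase, also differed upwards (0.73 and 1.29, adjusted p = 0.00128 and 0.00451 with the block).

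No difference between the strains was called among 6 genes of copper uptake. Of these, 3 fell with cysteine in wt (*CTR1*, *FRE1* and *FRE7*) and 2 in *snf5Δ* (*CTR1* and *FRE1*). Over all genes 0.226% fell in wt and 0.834% in *snf5Δ*. The fitted log2 effect of *FRE7* was -3.69 in wt and -2.75 in *snf5Δ*, where it was not called. *CTR1*, the high-affinity copper transporter, had 284 to 520 CPM in wt YPD, 40.6 to 117 CPM in wt YPD+Cys, 171 to 221 CPM in *snf5Δ* YPD and 48.1 to 84.3 CPM in *snf5Δ* YPD+Cys. Its difference was 0.90 with a 95% interval from -0.04 to 1.84, which includes 0. For *FRE1*, a reductase of iron and copper, the difference was 0.40 with an interval from -0.51 to 1.31. In all, 9 genes were called in both strains without the block, all in the same direction, and of these only *MMP1* differed between the strains.

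The remaining lists were described by counts and medians, beside 0 genes called higher, 19 called lower and a median of 0.00 over all genes. Over all 5757 genes, 2840 had differences below 0. Cytosolic ribosomal protein genes had a median difference of 0.28, 136 of 138 were above 0, and *RPS14B* and *RPS28B* were called higher with the block (adjusted p = 0.0497 and 0.0459). Of the 138, 126 were lower in *snf5Δ* than in wt in YPD and 56 in YPD+Cys, with median log2 differences of -0.77 and -0.49. Of all genes, 15% were lower in *snf5Δ* in YPD and 11.3% in YPD+Cys. Small nucleolar RNAs had a median of 0.35 with 0 of 77 called, and genes of the TCA cycle and respiration 0.27 with *ACO1* called higher of 40 (adjusted p = 0.0388 with the block). These medians moved with single libraries. That of the small nucleolar RNAs was 0.133 without wt YPD replicate 2, 0.151 without *snf5Δ* YPD+Cys replicate 1 and 0.568 without *snf5Δ* YPD+Cys replicate 2. That of the TCA cycle was 0.107 without wt YPD replicate 3 and 0.178 without wt YPD+Cys replicate 1. That of the ribosomal proteins was 0.148 and 0.472 without wt YPD+Cys replicates 2 and 3, 0.175 without *snf5Δ* YPD+Cys replicate 3 and 0.18 without wt YPD replicate 3. Ribosome biogenesis, proteasome, histone and Swi-Snf subunit genes had medians of 0.01, 0.01, 0.00 and -0.02, with 0 called in either fit. In bulk RNA these are shares of each library, and a change of 1 large class such as the ribosomal protein genes cannot be told apart from a change of the rest.

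**Figure D5:**
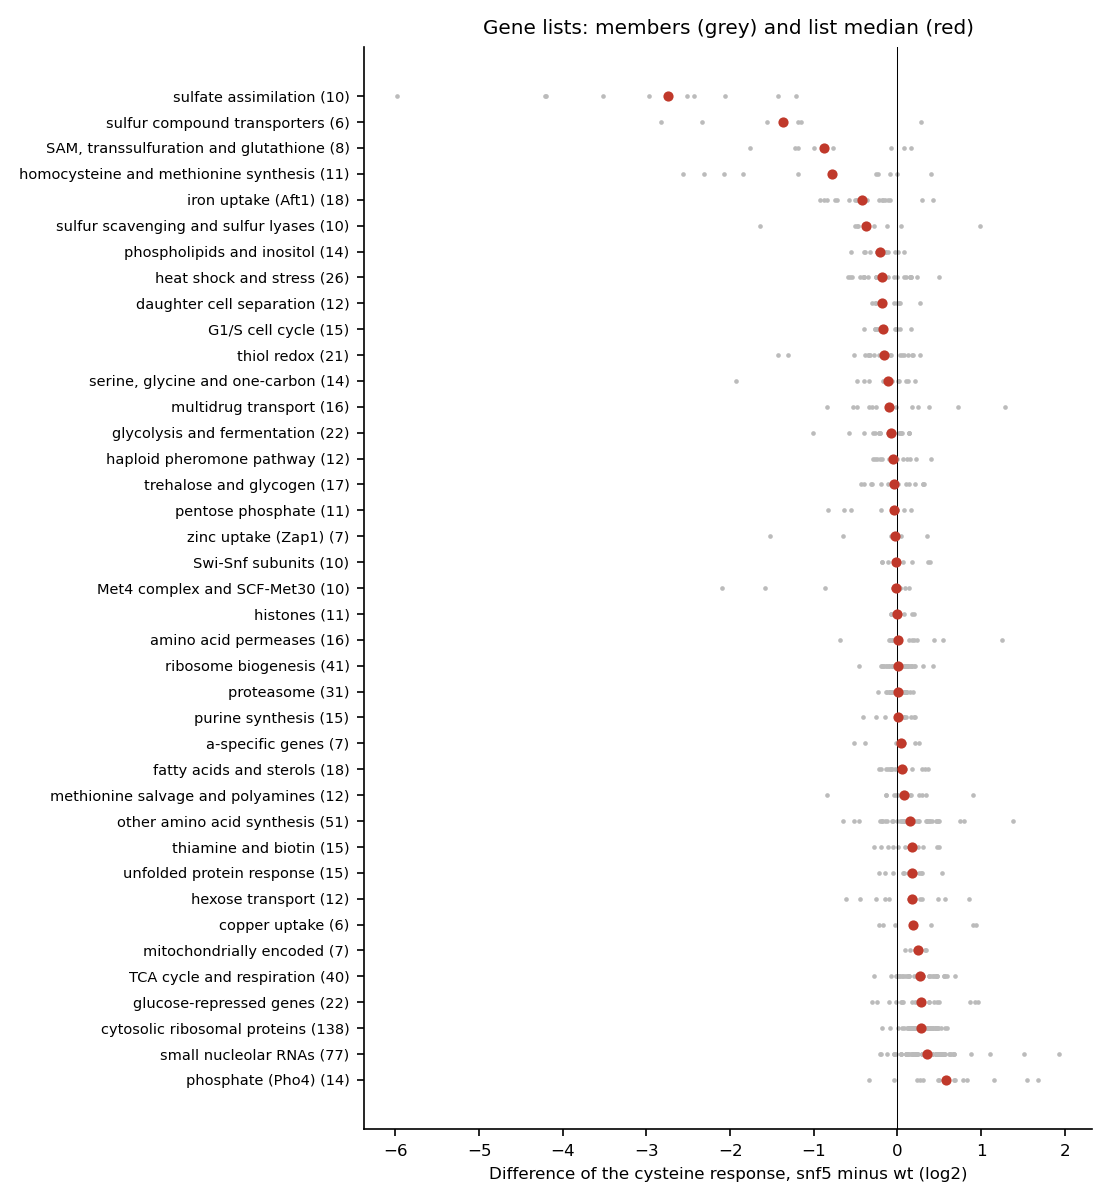
Difference of the cysteine response (*snf5Δ* minus wt, log2) for the members of each gene list with 5 or more genes tested (grey points, number of genes in brackets) and the median of the list (red). The 4 sulfur lists at the top have medians of -2.74 to -0.78, and the medians of the other lists, sulfur scavenging and sulfur lyases (-0.38) included, run from -0.42 to 0.58.

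The *snf2Δ* mutant lacks the ATPase of the same complex, and its response is given beside that of *snf5Δ* for the genes above. Both contrasts against wt use the same wt libraries. In YPD, *snf2Δ* replicates 2 and 3 had 53.5% and 44.6% of their reads at several places, against 3.02% to 14% in the other *snf2Δ* libraries. They held 2101434 and 2229514 counts in genes, which limits the comparisons with *snf2Δ*. Of the 19 genes, 5 responded lower in *snf2Δ* than in wt without the block (*SUL2*, *MET3*, *MET14*, *MET5* and *SER33*). These were the only 5 genes of all tested called lower there (0.0869%). With the block, 27 genes responded lower in *snf2Δ* than in wt (0.469%) and 5 higher (0.0869%). Of the 19, 15 fell with cysteine in *snf2Δ* without the block, where 34 of all genes fell (0.591%). A missing call in *snf2Δ* therefore does not make a response particular to *snf5Δ*. Over the 19 the median effect of cysteine was -1.43 in *snf2Δ* and -2.61 in *snf5Δ*. Because the 19 were chosen on the *snf5Δ* libraries, a larger value in *snf5Δ* than in *snf2Δ* follows in part from the choice. When *snf5Δ* and *snf2Δ* were compared directly, 0 genes were called (0%), and 0 by DESeq2 or by limma on TPM. At an unadjusted p under 0.05 there were 25 higher and 39 lower. That is fewer in all than this threshold would give with no difference, so the 0 calls do not show that the responses are alike. With the block 10 genes were called, all lower in *snf5Δ* (0.174%), and 8 of these are among the 19. The count was 0 to 19 in fits with the block that left out 1 library, with 0 calls without replicate 1 or 2 of *snf2Δ* or replicate 1 or 3 of *snf5Δ* in either medium.

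The direct comparison was widest for *SUL1* and *MHT1*. The 95% intervals here, and the differences printed with them, come from the fit without the block, in which 0 genes were called. These intervals are not adjusted for the number of genes tested. The adjusted p-values come from the fit with the block. *SUL1* had 12.3, 12.8 and 18.9 CPM in *snf2Δ* YPD and 8.61, 4.25 and 3.83 CPM in *snf2Δ* YPD+Cys, well under the 54.2 to 126 CPM of *snf5Δ* YPD (difference *snf5Δ* minus *snf2Δ* -2.49, 95% interval -3.92 to -1.06, adjusted p = 0.0176 with the block). *MHT1* had 12.8, 14.2 and 18.1 CPM in *snf2Δ* YPD and 6.62, 6.50 and 5.94 CPM in *snf2Δ* YPD+Cys (-1.74, interval -2.52 to -0.95, adjusted p = 0.0359 with the block). *MET3* had 139, 157 and 244 CPM in *snf2Δ* YPD and 33.3, 37.5 and 27.6 CPM in *snf2Δ* YPD+Cys (-1.47, interval -2.17 to -0.78, adjusted p = 0.0138 with the block). *YCT1* had 25.1 to 28.3 CPM in *snf2Δ* YPD and 18.6 to 25.3 CPM in *snf2Δ* YPD+Cys, and the adjusted p of its difference from *snf5Δ* was 0.0176 with the block (-1.10, interval -1.57 to -0.64). *MUP1* fell in both mutants, to 28.7 to 65.3 CPM in *snf2Δ* YPD+Cys, and the interval of its difference included 0 (-0.89, interval -1.89 to 0.10). *ZWF1* and *TDH1* were the 2 of the 10 that are not among the 19, with differences of -0.71 and -0.64 (adjusted p = 0.0174 and 0.0409 with the block).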

How the data were processed

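RNA-seq of 18 libraries, 3 for each of 3 strains in 2 media, was used. The authors deposited whole-number read counts per gene, made per the labels and the study's methods with bcl2fastq 2.18 and STAR 2.7.3a on sacCer3. The authors also deposited TPM values and RSEM 1.3.0 expected counts per library, in which reads with several places are shared out between genes. These were used only as alternatives, the expected counts rounded to whole numbers and the TPM as log2(TPM + 1) or log2(TPM + 0.1). Of the 7127 genes in the count table, 6088 were matched to the R64 reference and 5757 passed edgeR's filterByExpr. The 4 lines naming no gene (14.4% to 78.2% of the reads of a wt or *snf5Δ* library) stayed out of library sizes. Strand and overlapping or near-identical genes limit counts of single genes such as *TDH1*, *TDH2* and *TDH3*, *SAM1* and *SAM2*, *HXT6* and *HXT7* and ribosomal protein pairs, whose values are uncertain.

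Counts were fitted with edgeR 4.0.16 (R 4.3.3) by its quasi-likelihood test, TMM scaling and 1 mean for each of 6 groups, and called at a Benjamini-Hochberg adjusted p under 0.05 over all genes tested. Levels are CPM, the counts divided by the TMM-scaled library size. The script was tested on simulated data. The labels do not say that replicates were separate cultures, so p-values measure the spread between these libraries. Replicate numbers are shared by both media, and deviations from the group means of libraries with the same number correlated across genes, with r of 0.505 to 0.629 in wt, 0.247 to 0.535 in *snf5Δ* and 0.492 to 0.802 in *snf2Δ*. The pairing comes from this check and not from the labels, and the replicate number within strain was used as a block in a second fit. The common dispersion was 0.0292 without the block and 0.00476 with it. Alternatives were other scalings, filters, DESeq2 1.42.0, limma 3.58.1 and leaving out each library. Named genes are up to 12 per direction with the largest difference among called genes whose mean reached 10 CPM in 1 group or more, called members of the gene lists, and members of the 4 sulfur lists. The genes and lists were chosen with earlier results of these data known. Promoter windows were taken from the RefSeq R64 tables.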

Additional observations from a re-analysis of the deposited data

Results flagged for a closer look

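For 19 genes the effect of cysteine in *snf5Δ* and the effect in wt differed by the test of the difference itself (edgeR's quasi-likelihood test, adjusted p under 0.05). The log2 differences, *snf5Δ* minus wt, were -5.98 for *SUL1*, -4.21 for *SUL2*, -4.20 for *MET3*, -3.52 for *MET14*, -2.97 for *MET5*, -2.83 for *MUP1* and -2.56 for *MET6*. They were -2.51 for *MET16*, -2.43 for *MET10*, -2.33 for *MMP1*, -2.31 for *STR3*, -2.07 for *MHT1*, -1.93 for *SER33* and -1.64 for *YHR112C*. The smallest were -1.55 for *YCT1*, -1.42 for *MET1*, -1.24 for *IES5*, -1.21 for *MET22* and -0.78 for *HOM6*.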

How the results depend on the processing

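The count of 19 genes became 29 with DESeq2, 8 and 7 with limma on log2(TPM + 1) and log2(TPM + 0.1), 84 with the replicate block within strain and 26 with the block across strains. The 19 were all among the DESeq2 and block calls. It was 13 to 18 without 1 library, and 50 to 121 with the block. The *snf5Δ* minus *snf2Δ* count of 0 became 10 with the block, and 0 to 19 without 1 library. The 52 genes changed by cysteine in *snf5Δ* became 30 and 27 with limma and 207 with the block, then 113 to 162 without 1 library. The 25 changed in wt became 42 with DESeq2, 10 and 9 with limma, 6 from the compared groups only and 358 with the block, then 162 to 296 without 1 library. The median difference of all genes was 0.299 and 0.333 with limma on TPM, against 0.005, so list medians read relative to all genes depend on the scaling.

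Sign changes concerned genes that were not called. With limma on TPM (pseudocount 1, then 0.1) the differences were 0.093 and 0.104 for *HOM3*, 0.161 and 0.162 for *HOM2*, 0.304 and 0.33 for *MET7*, 0.063 and 0.067 for *MET12*, and 0.253 and 0.255 for *SAH1*. *MET7* was 0.004 over nuclear protein-coding genes, and *GSH2* was -0.023 with library totals. Without 1 library the values ran from -0.184 to 0.009 for *HOM2*, -0.117 to 0.107 for *MET7*, -0.248 to 0.214 for *SAH1*, -0.008 to 0.15 for *GSH2* and -0.037 to 0.46 for *SAM3*. Of 2272 gene and setting pairs 2088 kept direction and call. The causes were not tested. Alternatives added after seeing the data gave list medians of -2.948 to -2.362 for sulfate assimilation, 0.148 to 0.626 for ribosomal proteins, 0.133 to 0.72 for small nucleolar RNAs, 0.107 to 0.576 for the TCA cycle and respiration, -0.598 to -0.101 for iron, 0.396 to 0.966 for phosphate and -0.115 to 0.454 for copper uptake. Depth limits genes near 1 CPM, and 3 libraries a group limit small differences.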

Other observations

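The lowest fitted effects of cysteine in *snf5Δ* outside the sulfur genes included 6 genes at the ribosomal DNA repeats (YLR154W-A, YLR154W-B, *TAR1*, YLR154W-F, *YLR162W* and *RRT15*), with log2 effects of -5.65 to -3.89. Their summed level was 32.6, 0.727 and 1470 CPM in *snf5Δ* YPD, 3.37, 18 and 22.8 CPM in *snf5Δ* YPD+Cys, 21.5, 1.14 and 149 CPM in wt YPD and 1.63, 1.17 and 21.2 CPM in wt YPD+Cys. The highest library, *snf5Δ* YPD replicate 3, was also the one with 71.4% of its reads at several places, and the next, wt YPD replicate 3, had 28.6%. None of the 6 was called in the difference between the strains.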
